A study of Mus musculus with 2 samples.

Results

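The genes described here are the 10 members of a set of inflammasome and interleukin-1 (IL-1) family genes, Nlrp3, Casp1, Pycard, Gsdmd, Il1a, Il1b, Il18, Il1rn, Il1r2 and Il1r1. They were chosen by symbol, and all 10 were found once each among the 27998 genes of the deposited count tables. The study profiled whole mouse lung by droplet single-cell RNA sequencing in 2 libraries, labelled control and fibrosis, each from 1 mouse. Both mice were C57Bl/6J males aged 3 months, and lungs were taken on day 14 after 100 µg of particles had been placed in the trachea. The labels name titanium dioxide, a particle that scars little, and crocidolite asbestos, a fibre that scars the lung, for both mice and do not say which mouse had which particle. The groups therefore keep their labelled names here. Cells came from a digest of 1 perfused lung per library with dispase and DNase I, in which fibroblast-like cells numbered 45 and 52.

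An inflammasome is a cytosolic complex in which a sensor such as NLRP3 recruits the adaptor ASC (gene Pycard), which in turn gathers and activates caspase-1. Caspase-1 cuts the inactive precursors of IL-1β and IL-18 and also gasdermin D, whose fragment forms the pores through which the cytokines leave the cell. Transcription of Il1b, and in many cells of Nlrp3, is induced by Toll-like receptors and other inflammatory stimuli, whereas Il18 transcripts are present in resting macrophages. IL-1α and IL-1β signal through IL-1R1, while the receptor antagonist (Il1rn) occupies that receptor without signalling and IL-1R2 is a decoy that binds IL-1 without signalling. Mineral fibres and particles are known activators of NLRP3 in phagocytes, and transcript counts say nothing about processing or release of the cytokines.

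Of 15453 deposited cells, 14069 were kept, 7510 control and 6559 fibrosis cells, and these formed 32 clusters after clustering without the 10 genes. Clusters were named from marker genes, and 14 classes had at least 50 cells in each library. The deposited libraries held 36632591 and 38090308 UMIs (unique molecular identifiers, 1 per captured transcript), with medians of 3783.5 and 4292 per cell and lowest totals of 1460 and 1915. They shared 89 cell barcodes. The neutrophil-like class had 646 control cells and 50 fibrosis cells, the classical monocyte-like class 1459 and 373, and the alveolar macrophage-like class 651 and 1018. Since each group is 1 mouse, the groups were compared without any test and without a check by replicates. Intervals are exact 95% intervals for counting error only.

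The sequences before the start sites of the 3 cytokine genes are shown because the results turn on which cells held these 3 transcripts. They are RefSeq windows of 250 bases on GRCm38.p6, read 5′ to 3′ on the gene's strand and ending at the base before the start. Il1a lies at chr2:129309973-129310222 and Il1b at chr2:129371140-129371389, both on the minus strand, and Il18 at chr9:50554450-50554699 on the plus strand. Capitals mark the letters TATAAA and GAGGAA (the core bound by PU.1, a factor of myeloid cells), or their reverse complements.
Il1a: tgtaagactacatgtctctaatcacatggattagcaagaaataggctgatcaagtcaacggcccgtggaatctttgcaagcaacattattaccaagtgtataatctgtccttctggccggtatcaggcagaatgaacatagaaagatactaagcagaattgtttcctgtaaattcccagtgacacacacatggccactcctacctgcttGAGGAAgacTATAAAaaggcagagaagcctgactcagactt
Il1b: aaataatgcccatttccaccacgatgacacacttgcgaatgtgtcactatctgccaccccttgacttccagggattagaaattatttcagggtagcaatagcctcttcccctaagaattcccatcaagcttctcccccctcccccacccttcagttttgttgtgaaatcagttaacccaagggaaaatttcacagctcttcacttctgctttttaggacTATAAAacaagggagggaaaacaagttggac
Il18: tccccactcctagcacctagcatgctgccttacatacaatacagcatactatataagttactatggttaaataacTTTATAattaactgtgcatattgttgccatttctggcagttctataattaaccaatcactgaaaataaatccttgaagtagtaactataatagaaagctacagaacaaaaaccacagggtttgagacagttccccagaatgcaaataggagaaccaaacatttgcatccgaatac
The 4 motifs searched, on both strands, were TATAAA, the PU.1 core GAGGAA, the C/EBP family's TTGCNNAA and the NF-kB consensus, and no marked motif overlaps another in these 3 windows. TATAAA began 32 bases before the Il1a start and 31 bases before the Il1b start on the gene's own strand. In the Il18 window it occurred only on the opposite strand, 175 bases before the start. Of 32851 windows of that length in the table, 12.4% held TATAAA, 23.3% GAGGAA, 9.56% the C/EBP letters and 5.00% the NF-kB letters. The table held 13 windows for 9 of the 10 genes. Among the others, GAGGAA was found before Casp1, Pycard and 1 of 2 Nlrp3 starts, the C/EBP letters before Pycard and 1 of 2 Il1r1 starts, and the NF-kB letters before the other Nlrp3 start.

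Levels are given as CPM, the UMIs of a gene scaled to the total UMIs of the class. Per class, 140 pairs of a gene and a class were possible, and 86 had at least 20 UMIs over both libraries. Of these 86 pairs, 8 (9.30%) were at least 2-fold higher in the fibrosis library, where 4.56% of all 109209 gene and class pairs were. Another 7 (8.14%) were at least 2-fold lower, against 3.25% of all pairs. The median log2 ratio of the 86 pairs was -0.24, and that of all pairs was 0.005. The pairs at or past 2-fold higher were Il1b in alveolar macrophage-like and NK cell-like cells, Il1r1 in alveolar macrophage-like and endothelial cell-like cells, Nlrp3 and Il1rn in interstitial macrophage-like cells, Il18 in neutrophil-like cells and Gsdmd in ciliated cell-like cells. Those lower were Il1b in neutrophil-like, classical monocyte-like, endothelial cell-like and ciliated cell-like cells, Nlrp3 in neutrophil-like, Casp1 in type 2 dendritic cell-like and Pycard in endothelial cell-like cells. Il1b alone made up 6 of the 15.

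**Figure D1:**
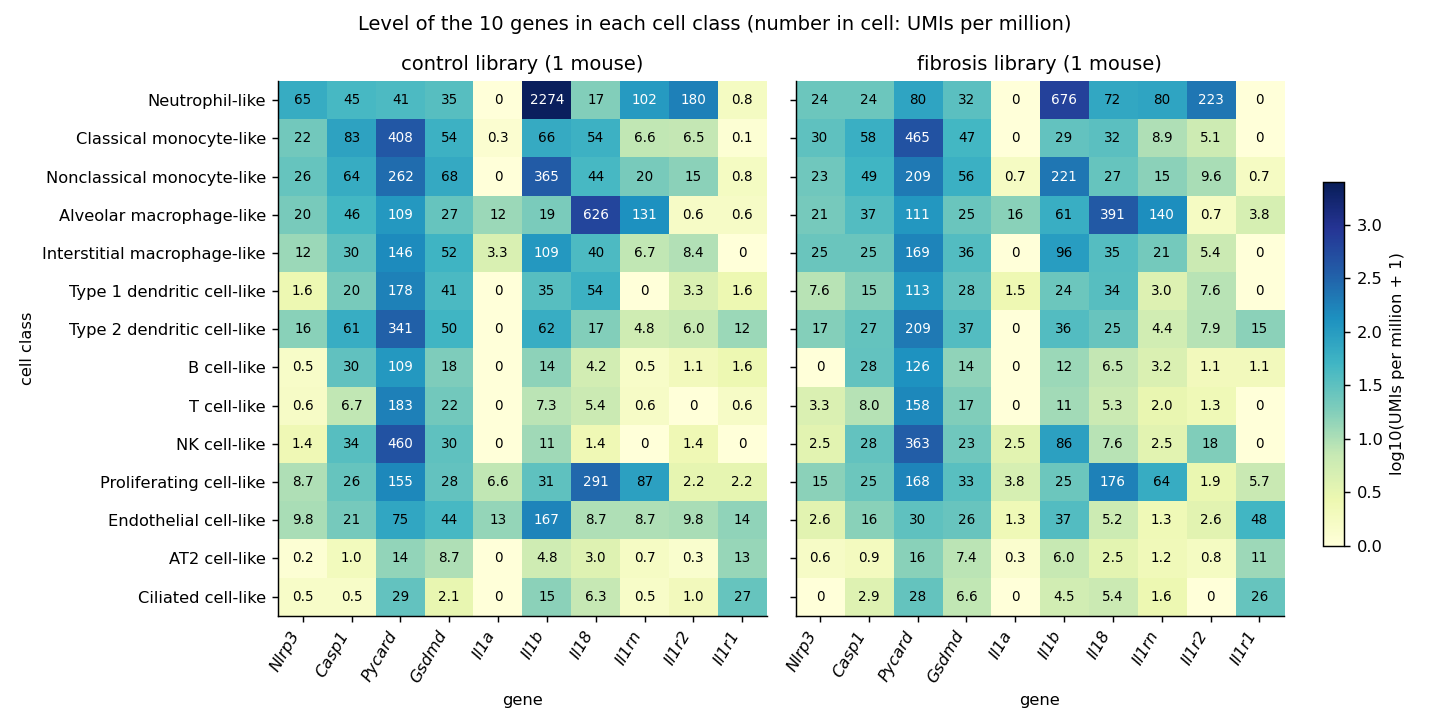
Level of each gene (columns) in the 14 compared cell classes (rows) of the control (left) and fibrosis library (right), in CPM, with colour on a log10 scale. Il1b in neutrophil-like cells (2274 and 676) and Il18 in alveolar macrophage-like cells (626 and 391) hold the highest values among the cytokines.

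The sensor gene Nlrp3 (chromosome 11, 59541568 to 59566956 on GRCm38, plus strand, protein-coding, 3 transcripts annotated) was a low transcript of myeloid cells. In the control library it stood at 64.5 CPM in neutrophil-like cells (84 UMIs, 51.5 to 79.9), above every other compared class. Nonclassical monocyte-like (26.3), classical monocyte-like (22.2), alveolar macrophage-like (20.2) and type 2 dendritic cell-like cells (15.6) followed, and neighbours in that order had overlapping intervals. B cell-like cells held 1 control and 0 fibrosis UMIs. In the fibrosis library the neutrophil-like level was 23.9 CPM from 3 UMIs (4.92 to 69.7). Its log2 ratio of -1.44 had an interval of -3.74 to 0.16, so a difference was not detectable at this depth, and with cells named one by one it was -0.61. Alveolar macrophage-like cells stood at 20.2 and 20.7 CPM, with a log2 ratio of 0.03 (-0.41 to 0.49). Classical monocyte-like cells went from 22.2 to 29.8 (0.42, -0.08 to 0.90) and interstitial macrophage-like cells from 11.7 to 25.2 CPM (7 and 33 UMIs, 1.11, -0.09 to 2.53), and both intervals included 0. The share of all Nlrp3 UMIs held by classical monocyte-like cells was 38.6% (control) and 15.1% (fibrosis), and that of the alveolar macrophage-like class was 15.2% and 38.9%.

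Casp1, which encodes the protease of the complex (chromosome 9, 5298517 to 5307265, plus strand, 1 transcript), was highest in classical monocyte-like cells, at 83.3 CPM (619 UMIs) against 57.7 CPM (91 UMIs) in fibrosis. Its log2 ratio there was -0.53 (-0.86 to -0.21). It was also lower in the fibrosis library in alveolar macrophage-like cells, at 46.4 and 37.0 CPM (-0.33, -0.64 to -0.02), and in type 2 dendritic cell-like cells, at 61.3 and 27.2 CPM (-1.17, -1.86 to -0.50). Over the 12 classes with enough UMIs its median log2 ratio was -0.35, and relative to the median of the other classes the classical monocyte-like ratio was -0.20. In the alveolar macrophage-like class, the ratio relative to the other classes was 0.051. Neutrophil-like cells held 44.5 CPM in the control library, and only 3 UMIs in the fibrosis library.

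Pycard (chromosome 7, 127989708 to 127993867, minus strand, 2 transcripts), the adaptor gene, had 6041 control and 3577 fibrosis UMIs. NK cell-like cells (460 CPM in the control library, 363 in the fibrosis library) and classical monocyte-like cells (408 and 465) stood highest among the compared classes. The classical monocyte-like log2 ratio was 0.19 (0.07 to 0.30) and the NK cell-like one -0.34 (-0.63 to -0.05). It was lower in the dendritic classes, at 341 and 209 CPM in type 2 (-0.71, -0.96 to -0.45) and 178 and 113 in type 1 dendritic cell-like cells (-0.66, -1.03 to -0.29). Nonclassical monocyte-like cells stood at 262 and 209 CPM (-0.32, -0.52 to -0.13). In alveolar macrophage-like cells the levels of 109 and 111 CPM differed by less than counting error (0.02, -0.17 to 0.22). Pycard stood at only 40.7 CPM in control neutrophil-like cells, the class with the most Nlrp3 and Il1b, and AT2 cell-like cells (surfactant-making epithelium) held 13.6 and 15.6. Endothelial cell-like cells went from 75.4 to 30.0 CPM (-1.33, -2.08 to -0.63). That difference lay in the cluster led by Vwf (102.6 and 29.7 CPM), and the cluster led by Kdr stood at 27.2 and 31.1. In the control library the Vwf-led cluster also held 19 Casp1 and 9 Nlrp3 UMIs, against 0 of each in the Kdr-led cluster. Gsdmd had 20 UMIs in each cluster there, and Il1a 3 and 9. The summed neutrophil markers of the endothelial cell-like class were 15881 and 2246 CPM, and the part of other cell types was not tested. Without cells holding at least 10 UMIs of S100a8 and S100a9, abundant neutrophil genes, Pycard stood at 79.7 (61.2 to 101.9) and 30.5 CPM (19.3 to 45.7), and with doublets removed at scrublet's own threshold the log2 ratio was -0.61.

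Gsdmd (chromosome 15, 75862327 to 75867408, plus strand, 6 transcripts), the gene of the pore-forming protein, was found in every compared class. Nonclassical monocyte-like cells stood highest among the compared classes, at 68.0 and 56.2 CPM, followed in the control library by classical monocyte-like (54.1), interstitial macrophage-like (51.9) and type 2 dendritic cell-like cells (50.4), whose intervals overlapped. Of 14 classes, 13 had intervals of the log2 ratio that included 0. Only ciliated cell-like cells did not, with 4 control and 16 fibrosis UMIs (2.09 and 6.59 CPM, 1.66, 0.03 to 3.70), and with cells named one by one that ratio was 0.78, under 2-fold. Within the endothelial cell-like class, the Kdr-led cluster had 20 control UMIs and 1 fibrosis UMI (60.5 and 6.23 CPM, -3.28, -8.65 to -0.64), while the Vwf-led cluster stood at 34.2 and 31.4 CPM.

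**Figure D2:**
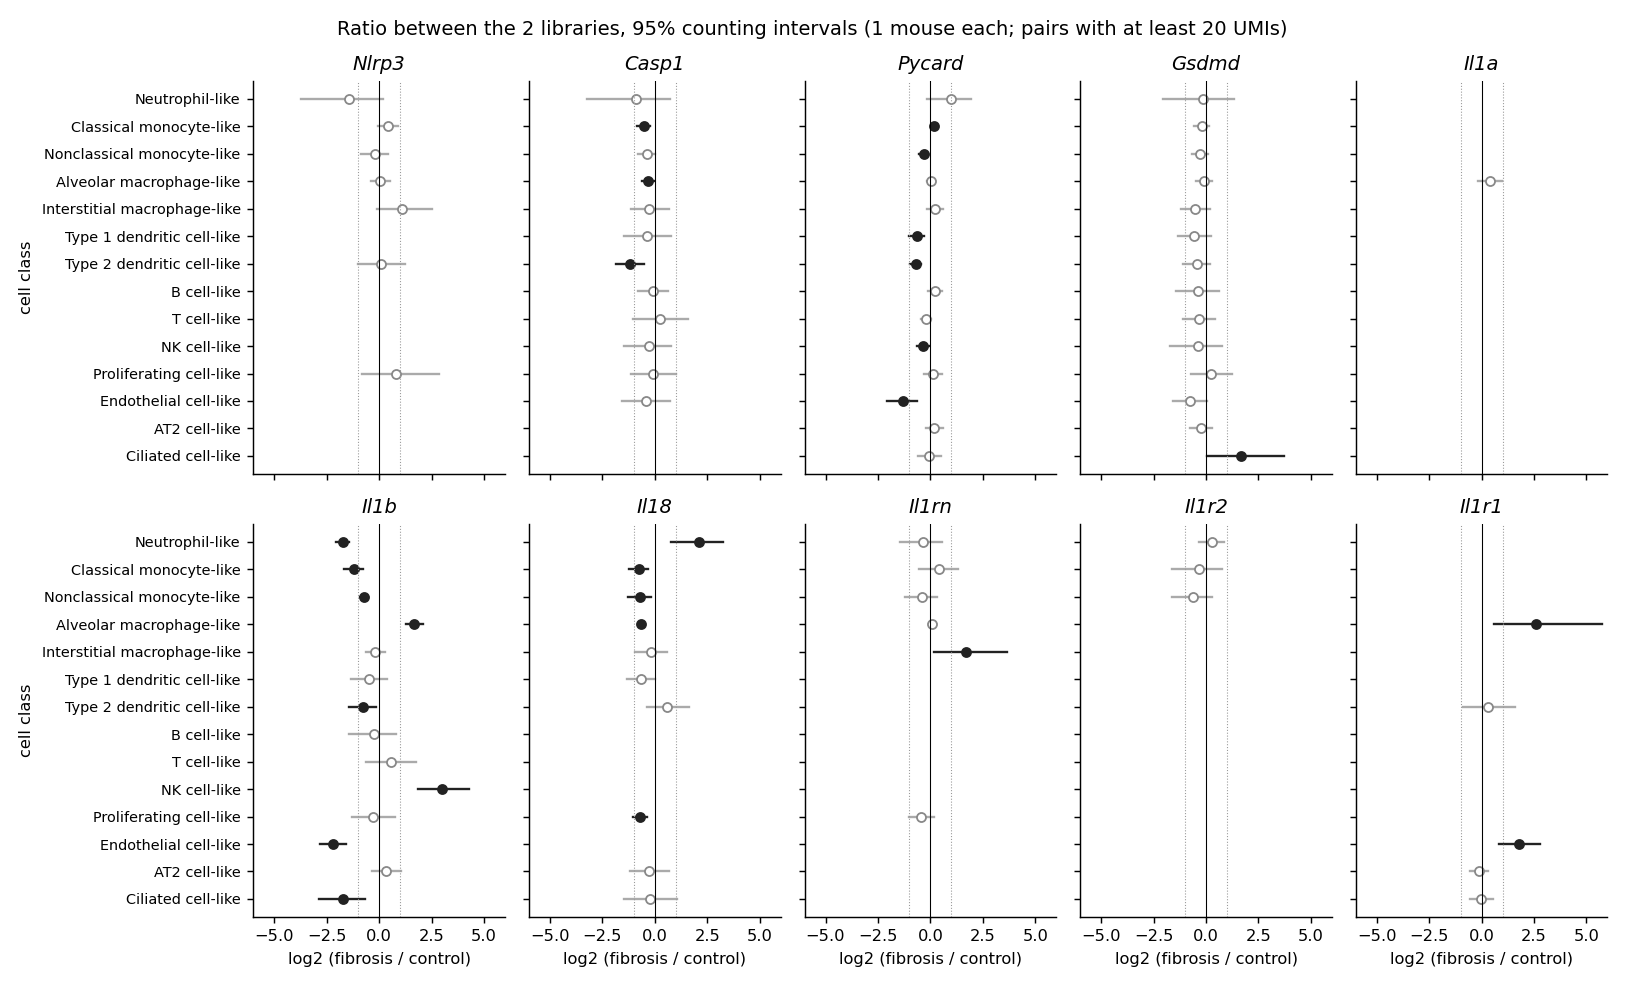
Log2 ratio of each gene's level in the fibrosis over the control library (x axis) by cell class (y axis) for the 86 pairs with at least 20 UMIs, with 95% counting intervals. Filled points have intervals that leave out 0, the dotted lines mark 2-fold, and Il1b lies left of 0 in neutrophil-like (-1.75) and classical monocyte-like cells (-1.22) and right of 0 in alveolar macrophage-like cells (1.66).

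Il1b (chromosome 2, 129364570 to 129371139, minus strand, 3 transcripts), the gene of IL-1β, had ratios from -2.19 to 2.97 on the log2 scale over the 14 classes, the widest range of the 10 genes. Control neutrophil-like cells held 2961 UMIs of it, or 2274 CPM (2193 to 2357), and fibrosis ones 85 UMIs, or 676 CPM (540 to 836). The log2 ratio was -1.75 (-2.08 to -1.44), a 3.36-fold lower level. Alveolar macrophage markers in this class were higher in the fibrosis library, as given with Il18 below, and their part was not tested. In this class 10.6% of all genes tested were at least 2-fold higher and 11.9% at least 2-fold lower, more than in any other compared class. With each cell thinned to 1000 UMIs, Il1b was found in 81.1% of 646 control cells (77.9 to 84.1) and in 48.0% of 50 fibrosis cells (33.7 to 62.6). B cell-like cells, a class not expected to express it, gave 1.58% and 1.44%. Without thinning, the shares were 92.3% and 70.0% in neutrophil-like cells, at median depths of 1813 and 2147 UMIs, and 2.82% and 3.17% in B cell-like cells, at 1828 and 2492. At least 10 UMIs were found in 61 control neutrophil-like cells, up to 34 in 1 cell, while the highest fibrosis cell had 8. Neutrophil-like cells held 58.0% of all control Il1b UMIs and 5.67% of the fibrosis ones. The lowest cell totals were 1460 UMIs (control) and 1915 (fibrosis), and the control neutrophil-like median of 1813 lay between them. At a common minimum of 1915 UMIs the control share was lower, as given below. Over all kept cells Il1b stood at 157.6 CPM (control) and 43.97 CPM (fibrosis). With the fibrosis levels of each class at the control library's class weights it was 72.4.

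Classical monocyte-like cells also had less Il1b in the fibrosis library, 28.5 CPM (45 UMIs) against 66.3 (493 UMIs), a log2 difference of -1.22 (-1.69 to -0.78). With cells named one by one instead of by cluster it was -0.69. The nonclassical monocyte-like class stood at 365 and 221 CPM (-0.72, -0.91 to -0.54), but it joined a pair of clusters. One, with 138 control and 48 fibrosis cells, also carried the neutrophil genes Csf3r and Cxcr2 and held 933 and 704 CPM of Il1b. The other, with 488 and 404 cells, held 170 and 155 CPM, which differed by less than counting error (-0.14, -0.40 to 0.12). Interstitial macrophage-like cells stood at 108.7 and 95.6 CPM (-0.19, -0.63 to 0.27). Type 2 dendritic cell-like cells stood at 62.5 and 36.0 CPM (-0.80, -1.42 to -0.18), but without doublet removal the ratio was -0.056.

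Alveolar macrophage-like cells went the other way. They held 62 Il1b UMIs in the control library, 19.3 CPM (14.8 to 24.7), and 357 in the fibrosis library, 61.1 CPM (54.9 to 67.8), a log2 ratio of 1.66 (1.27 to 2.08). The control level overlapped the 14.3 CPM (9.43 to 20.8) of B cell-like cells, and the share of cells with Il1b after thinning, 2.30% (1.295 to 3.77), overlapped their 1.58%. The fibrosis share was 4.81% (3.58 to 6.31) against 1.44% in B cell-like cells. Without thinning the alveolar macrophage-like shares were 7.07% and 15.6%, at median depths of 4742 and 5194 UMIs. The summed level of 12 neutrophil markers in this class was 979 and 1075 CPM in the 2 libraries, with none of them at 0. The class accounted for 1.21% of control and 23.8% of fibrosis Il1b UMIs.

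Neutrophil transcripts differed in the same direction as Il1b in endothelial cell-like, NK cell-like and ciliated cell-like cells, and their part was not tested. In endothelial cell-like cells Il1b went from 167 to 36.5 CPM while the 12 neutrophil markers together went from 15881 to 2246. NK cell-like cells went from 10.98 to 86.3 CPM of Il1b and from 771 to 8868 of the markers, and ciliated cell-like cells from 15.1 to 4.53 and from 1482 to 780. Cells with at least 10 UMIs of S100a8 and S100a9 made up 31 of 318 control and 5 of 198 fibrosis endothelial cell-like cells and 0 of 314 and 10 of 144 NK cell-like cells. Without these cells endothelial cell-like cells stood at 25.3 and 17.2 CPM of Il1b, NK cell-like cells at 10.98 and 16.4 and nonclassical monocyte-like cells at 173 and 154. Ciliated cell-like cells then stood at 7.31 (2.68 to 15.9) and 5.54 CPM (2.53 to 10.52), a log2 ratio of -0.40. The intervals of the paired levels then overlapped in each of these 4 classes. Removing such cells also removed Il1b UMIs, with 6 control and 9 fibrosis UMIs left in ciliated cell-like cells. The overlap therefore does not show that the levels were equal. The NK cell-like log2 ratio of 2.97 was -0.13 without doublet removal and 1.32 with cells named one by one. Alveolar macrophage-like cells without such cells stood at 15.2 (11.2 to 20.2) and 56.1 CPM (50.1 to 62.8), and classical monocyte-like cells at 66.4 and 27.6, which still did not overlap.

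**Figure D3:**
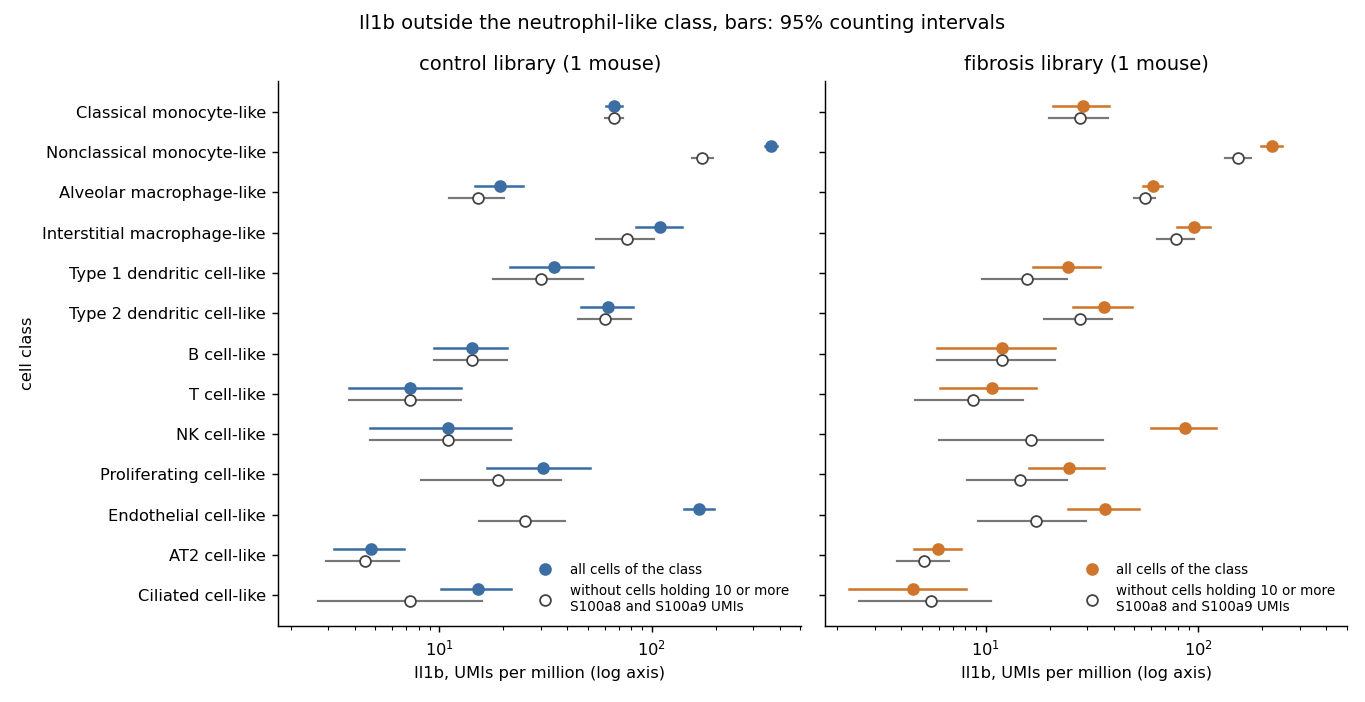
Il1b level (x axis, CPM on a log scale) in the compared classes other than neutrophil-like cells, with all cells (filled) and without cells holding at least 10 UMIs of S100a8 and S100a9 (open), for each library, with 95% counting intervals. Endothelial cell-like cells of the control library move from 167 to 25.3 and NK cell-like cells of the fibrosis library from 86.3 to 16.4, while the fibrosis alveolar macrophage-like level moves from 61.1 to 56.1.

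Il1a (chromosome 2, 129299610 to 129309972, minus strand, 1 transcript), the gene of IL-1α, was rare, with 66 control and 104 fibrosis UMIs. Alveolar macrophage-like cells held 57.6% and 87.5% of them, at 11.8 CPM (38 UMIs, 8.37 to 16.2) and 15.6 CPM (91 UMIs, 12.54 to 19.1), which differed by less than counting error (0.40, -0.16 to 0.98). Control endothelial cell-like cells held 12 UMIs (13.1 CPM) and fibrosis ones 1, under the minimum of 20 for a ratio. Of the 12, 9 lay in the cluster led by Kdr. Unlike Il1b, Il1a had no UMI in neutrophil-like cells of either library. The exact intervals there reached up to 2.83 CPM (control) and 29.3 CPM (fibrosis).

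Il18 (chromosome 9, 50554827 to 50581840, plus strand, 4 transcripts) was a gene of alveolar macrophage-like cells, which held 70.0% of its control and 80.8% of its fibrosis UMIs. These cells stood at 626 CPM (2012 control UMIs, 599 to 654) and 391 CPM (2287 fibrosis UMIs, 375 to 408), a log2 ratio of -0.68 (-0.77 to -0.59). After thinning, Il18 was found in 42.1% (38.3 to 46.0) and 31.5% (28.7 to 34.5) of them, and in 0.339% and 0.576% of B cell-like cells. The unthinned shares were 87.9% and 73.0%, against 0.903% and 1.73%. Il18 was also lower in classical monocyte-like cells, 54.1 and 31.7 CPM (-0.77, -1.23 to -0.34), while nonclassical monocyte-like cells stood at 43.7 and 26.7 (-0.71, -1.27 to -0.17). Proliferating cell-like cells went from 291 to 176 CPM (-0.73, -1.06 to -0.40), and their 12 alveolar macrophage markers summed to 13442 and 25184 CPM. Over the whole library Il18 stood at 88.7 and 82.99 CPM. With the fibrosis levels at control class weights it was 59.2. In neutrophil-like cells Il18 went from 16.9 CPM (22 UMIs) to 71.6 (9 UMIs, log2 ratio 2.08, 0.78 to 3.26). Those 9 UMIs lay in 2 cells, 8 of them in 1 cell, and alveolar macrophage markers in the class went from 382 to 4174 CPM, whose part in the result was not tested. The ratio was -0.43 with cells named one by one and -1.24 with a mitochondrial maximum of 5%.

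**Figure D4:**
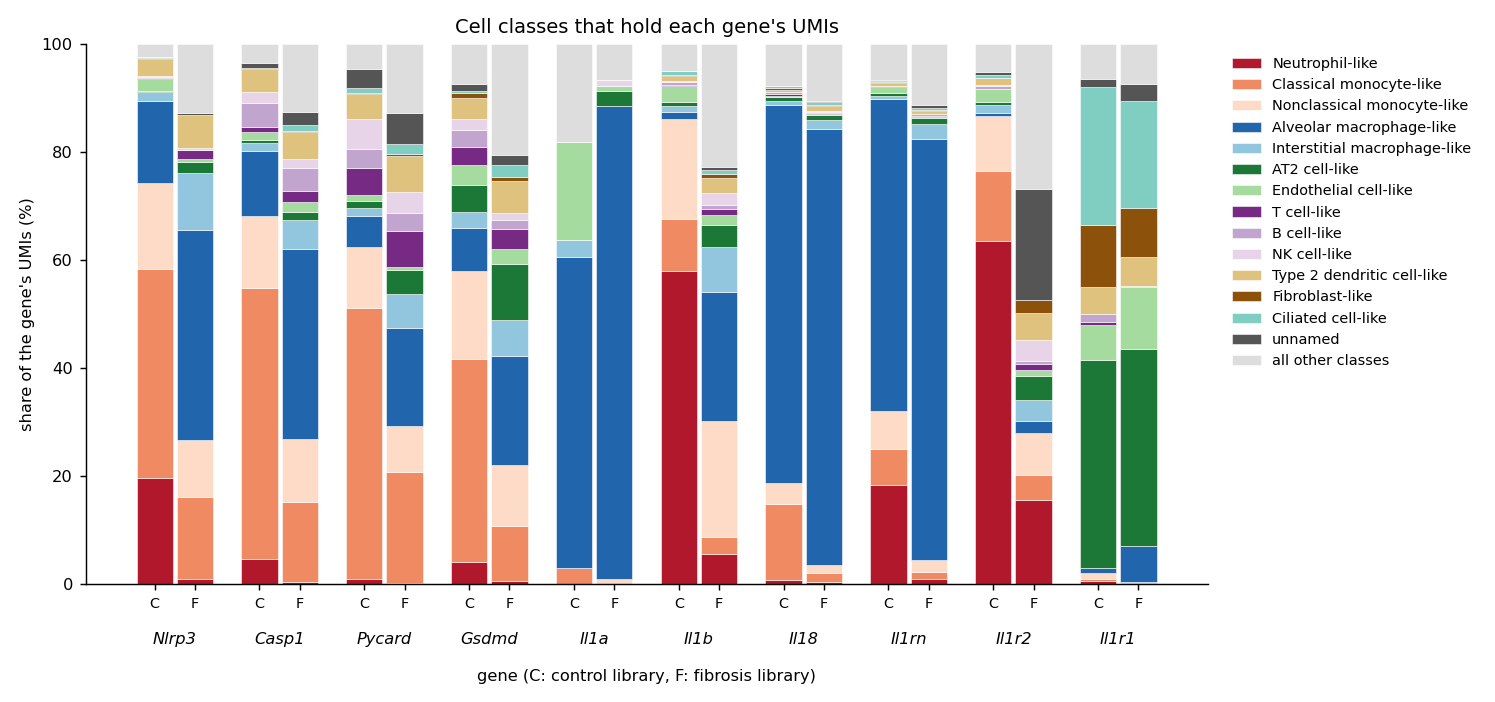
Share of each gene's UMIs (y axis, %) held by the coloured cell classes in the control (C) and fibrosis (F) libraries. Neutrophil-like cells hold 58.0% of control and 5.67% of fibrosis Il1b UMIs, and alveolar macrophage-like cells hold 57.7% and 78.1% of those of Il1rn. No common minimum of UMIs per cell was applied.

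The alveolar macrophage-like class joined 2 clusters. One was led by Fabp1 and held 618 control and 564 fibrosis cells, and the other was led by Mmp12 and held 33 and 454. Since 454 of the 487 Mmp12-led cells came from the fibrosis library, a ratio over the whole class joins the difference between libraries with that between clusters. With the class taken without the Mmp12-led cells, the log2 ratio of Il18 was -0.12 in place of -0.68. Within the Fabp1-led cluster Il18 stood at 640 CPM (612 to 669) and 590 CPM (562 to 620), a log2 ratio of -0.12 (-0.21 to -0.02). In the fibrosis library the Mmp12-led cluster held 211 CPM (195 to 228), a log2 difference of -1.48 (-1.61 to -1.35) from the Fabp1-led cells of the same mouse. Il1b was the reverse, at 77.9 CPM in the Mmp12-led and 42.5 in the Fabp1-led fibrosis cells (0.87). It was also higher within the Fabp1-led cluster, 20.2 and 42.5 CPM in the 2 libraries (1.08, 0.62 to 1.55).

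Nlrp3, Gsdmd and Casp1 were likewise lower in the Mmp12-led cells. In the fibrosis library Nlrp3 stood at 10.8 CPM in the Mmp12-led and 31.7 in the Fabp1-led cells (-1.56, -2.18 to -0.97), and Gsdmd at 14.3 and 36.8 (-1.36, -1.90 to -0.84). Casp1 stood at 31.6 and 42.9 CPM in the same cells (-0.44, -0.84 to -0.04). Within the Fabp1-led cluster, Nlrp3 went from 20.5 to 31.7 CPM between the libraries (0.63, 0.15 to 1.12), beside class levels of 20.2 and 20.7. Pycard was slightly higher in the Mmp12-led cells, at 124 against 96.6 CPM (0.36, 0.13 to 0.59). Il1rn differed little, at 131 and 149 CPM (-0.19, -0.39 to 0.01), and Il1a at 16.9 and 14.1 CPM not beyond counting error (0.27, -0.36 to 0.91).

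**Figure D5:**
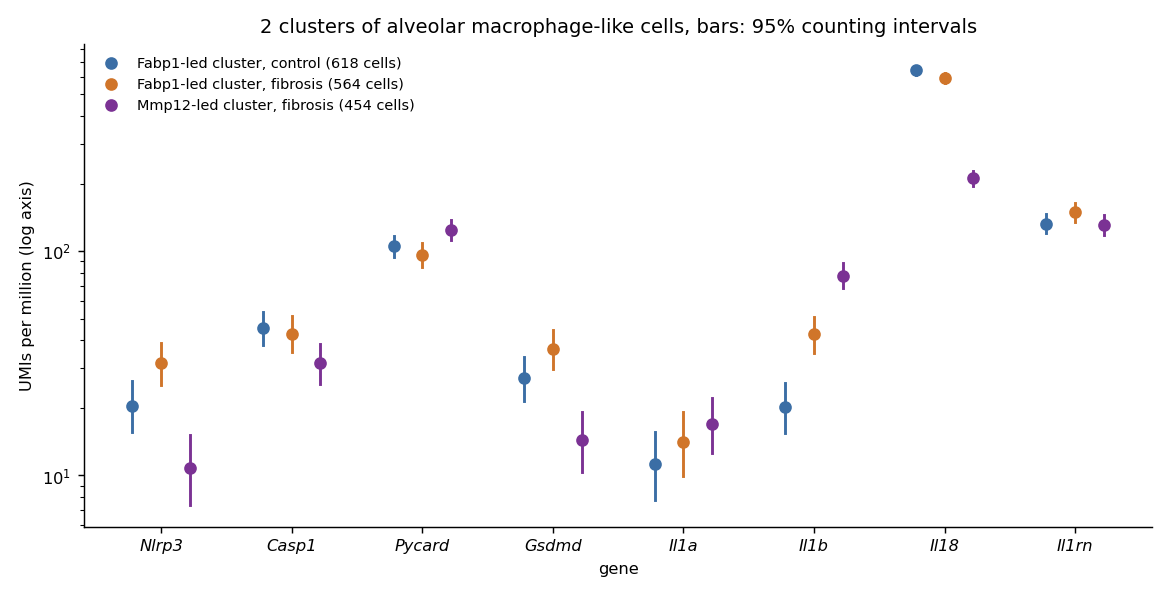
Levels of 8 genes (y axis, CPM on a log scale) in the Fabp1-led cluster of each library and the Mmp12-led cluster of the fibrosis library, with 95% counting intervals. Il18, Nlrp3 and Gsdmd are lowest in the Mmp12-led cells (211, 10.8 and 14.3), and Il1b is highest there (77.9).

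Il1rn (chromosome 2, 24336853 to 24351494, plus strand, 6 transcripts), the antagonist gene, was likewise held mainly by alveolar macrophage-like cells, at 57.7% and 78.1% of its UMIs. Their levels of 131 CPM (420 UMIs, 118 to 144) and 140 CPM (816 UMIs, 130 to 150) differed by less than counting error (0.10, -0.08 to 0.27). Neutrophil-like cells held 102 CPM (133 UMIs) and 79.5 CPM (10 UMIs), also within counting error (-0.36, -1.45 to 0.56). Interstitial macrophage-like cells went from 6.69 CPM (4 UMIs) to 21.4 CPM (28 UMIs, 1.68, 0.16 to 3.65), while 12 alveolar macrophage markers in them went from 897 to 1702 CPM, whose part was not tested. The ratio was 0.95 without doublet removal, 2.49 without S100-rich cells and 3.12 with cells named one by one. Of the Il1rn and Il1b UMIs together, Il1rn made up 87.1% in control alveolar macrophage-like cells (83.8 to 90.0) and 69.6% in fibrosis ones (66.8 to 72.2). In neutrophil-like cells it made up 4.30% (3.61 to 5.07) and 10.53% (5.16 to 18.5), and in classical monocyte-like cells 9.04% (6.77 to 11.8) and 23.7% (13.6 to 36.6). These are shares of UMIs, not of protein. Alveolar macrophage markers in neutrophil-like cells, given with Il18, were higher in the fibrosis library, and their part in the neutrophil-like shares was not tested.

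Il1r2 (chromosome 1, 40074079 to 40125231, plus strand, 4 transcripts), the decoy receptor gene, was highest in neutrophil-like cells among the compared classes, at 180.5 CPM (235 control UMIs, 158 to 205) and 222.6 CPM (28 fibrosis UMIs, 148 to 322). Unlike Il1b in the same cells, it did not differ beyond counting error (0.30, -0.32 to 0.87), and the difference between the 2 genes' ratios was not tested. Neutrophil-like cells held 63.5% and 15.6% of its UMIs. No common minimum of UMIs per cell was applied to these shares, and the lowest cell totals were 1460 (control) and 1915 (fibrosis). All other compared classes stood under 18 CPM in each library, and the 17.8 CPM in fibrosis NK cell-like cells (7 UMIs) came to 2.73 (1 UMI) without cells rich in S100a8 and S100a9.

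Il1r1 (chromosome 1, 40225080 to 40317257, plus strand, 3 transcripts), the signalling receptor gene, was held mostly by epithelial cell classes. AT2 cell-like cells held 38.5% and 36.3% of its UMIs at 12.7 and 11.47 CPM (77 and 117 UMIs, -0.14, -0.57 to 0.29). Ciliated cell-like cells stood at 26.6 and 26.4 CPM (-0.01, -0.57 to 0.55). Endothelial cell-like cells went from 14.2 CPM (13 UMIs, 7.56 to 24.3) to 48.3 CPM (37 UMIs, 34.0 to 66.5), a log2 ratio of 1.76 (0.82 to 2.80). The Kdr-led cluster went from 15.1 to 43.6 CPM (5 and 7 UMIs) and the Vwf-led cluster from 13.7 to 49.5 (8 and 30 UMIs). Markers of AT2 cells in the endothelial cell-like class summed to 2378 and 6336 CPM and those of fibroblasts to 78.7 and 171, and their part was not tested. Alveolar macrophage-like cells had 2 control and 22 fibrosis UMIs (0.622 and 3.76 CPM, 2.596, 0.57 to 5.73), beside AT2 markers at 1728 and 2454 CPM, whose part was not tested, and the ratio was 3.56 without S100-rich cells. Il1r1 had no UMI in NK cell-like and interstitial macrophage-like cells of either library.

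The wider pathway was read from lists that were written with earlier results of these data known. The shares below are therefore descriptions and no list was tested. Pairs repeat the same genes over several classes and are not independent. In all, 14 listed genes were Toll-like receptor and NF-kB induced genes, and the pairs tested came from 13 of them. Among the Toll-like receptor and NF-kB induced genes, 26 of 120 pairs (21.7%) were at least 2-fold higher in the fibrosis library and 6 (5.00%) lower, against 4.56% and 3.25% of all gene and class pairs. In neutrophil-like cells, where Il1b was lower, 2 of 8 genes of this list were at least 2-fold higher and 1 lower. Of all genes tested in that class, 10.6% were higher and 11.9% lower. The chemokine gene Cxcl2 went from 123 to 461 CPM (1.91, 1.45 to 2.35) and Tnf from 17 to 6 UMIs, or 13.1 to 47.7 CPM (1.87, 0.24 to 3.28). Clec4e, a receptor for mycobacterial lipid, went from 422 to 175 CPM in them (-1.27, -1.96 to -0.66). In alveolar macrophage-like cells 3 of 11 genes were at least 2-fold higher and 0 lower, with a median log2 ratio of 0.09 over the 11. Among all genes tested in this class the shares were 5.10% and 1.93%. Of the 3 listed genes, Cxcl2 went from 6.22 to 20.7 CPM (1.73, 1.04 to 2.50), Ccl4 from 2.80 to 24.8 (3.15, 2.18 to 4.30) and Ccl3 from 16.8 to 33.9 (1.012, 0.57 to 1.47). In classical monocyte-like cells 4 of 11 listed genes were at least 2-fold higher and 0 lower, with a median of 0.26, beside 4.92% and 3.08% of all genes tested there. In this class, where Il1b was lower, Cxcl2 went from 1.61 to 15.8 CPM (3.30, 2.25 to 4.42) and Ccl3 from 7.80 to 20.9 (1.42, 0.76 to 2.06).

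The same shares of all pairs, 4.56% higher and 3.25% lower, stand beside the other lists. Other inflammasome sensors were at least 2-fold higher in 4 (9.76%) and lower in 5 (12.2%) of 41 pairs. Adaptors, caspases and regulators were higher in 6 (5.41%) and lower in 4 (3.60%) of 111, near the shares of all pairs. Casp4, the caspase that senses bacterial lipopolysaccharide inside the cell, stood at 131 CPM in control neutrophil-like cells (170 UMIs) and 15.9 in fibrosis ones (2 UMIs, -3.04, -6.09 to -1.16). Nlrc4, from the list of sensors, went from 5.25 to 12.7 CPM in classical monocyte-like cells (1.27, 0.42 to 2.09). Of the genes for pores and membrane rupture, 1 of 31 pairs (3.23%) was higher and 4 (12.9%) lower. Ninj1, whose protein ruptures the membrane of dying cells, went from 11.2 to 26.0 CPM in alveolar macrophage-like cells (1.22, 0.68 to 1.78) and from 570 to 261 in interstitial macrophage-like cells (-1.13, -1.35 to -0.90). Signalling genes below the receptors were higher in 7 (5.04%) and lower in 2 (1.44%) of 139 pairs, near or under the shares of all pairs. Among them Irak2 went from 8.61 to 20.3 CPM in classical monocyte-like cells (1.24, 0.58 to 1.87), and Myd88, the shared adaptor of IL-1 and Toll-like receptors, from 92.5 to 30.7 in type 2 dendritic cell-like cells (-1.59, -2.21 to -0.995). Other IL-1 family receptors and decoys were higher in 7 (16.7%) and lower in 2 (4.76%) of 42 pairs. Of 9 pairs of other IL-1 family ligands 5 were higher, all of them Il33, an epithelial cytokine, in classes where it stood under 37 CPM. Il33 was also a leading gene of an AT2 cell-like cluster led by Slc26a4, with 54 control and 445 fibrosis cells. The part of AT2 transcripts in those 5 pairs was not tested.

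Il1b and its partners were also counted cell by cell after thinning to 1000 UMIs, in 48 comparisons of 6 partners over 6 classes. In control neutrophil-like cells Nlrp3 was found in 6.30% of 524 cells with Il1b and 5.74% of 122 without. In fibrosis alveolar macrophage-like cells Il1rn was found in 8.16% of 49 cells with Il1b (2.27 to 19.6) and 13.4% of 969 without (11.3 to 15.7), and Nlrp3 in 4.08% and 2.68%. Control nonclassical monocyte-like cells gave 7.10% of 155 and 1.49% of 471 for Nlrp3, and this class includes the cluster with Csf3r and Cxcr2. In the fibrosis library the same shares were 2.50% and 2.69%.

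Genes were also compared across 32 profiles, each a named class in 1 library with at least 50 cells, which share libraries and depth. The gene most like Il1b by Pearson's r of log levels was Csf3r, the receptor of a neutrophil growth factor (r = 0.920 among 13563 genes), followed by S100a8 (0.896). For Il1r2 it was Dhrs9 (0.827), and Il1b came next (0.825). Il18 was most like Clec4n (0.863), Il1rn most like Ccl6 (0.897), Nlrp3 most like Clec4a2 (0.933) and Il1r1 most like Crip2 (0.867).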

How the data were processed

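The authors deposited raw UMI counts per gene and cell for 2 libraries, as whole numbers. Per the submitters' processing notes, bcl2fastq and Cell Ranger 1.3 were used and the build was mm10; the annotation is not given in the sources used here. Gene positions are from GENCODE M21 (GRCm38). Cells with fewer than 200 genes or over 10% mitochondrial UMIs were left out, and the 515 control and 386 fibrosis cells with the highest scrublet scores were removed as doublets (scanpy 1.11.5, 0.8% per 1000 cells), since the score's own threshold marked 13 and 168. Clustering used 2000 variable genes without the 10 members and the pathway lists, 30 components, 15 neighbours and Leiden resolution 1. Clusters were named from marker lists of 25 types, with at least 3 markers raised 2-fold; the names are rebuilt here, so other namings are possible. Of the listed symbols, 12 were not in the files.

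UMIs were summed per class and library. Levels are CPM with exact Poisson intervals, ratios have exact conditional intervals, and shares exact Clopper-Pearson intervals, all 95%. They cover counting error only. In counting pairs past 2-fold, a count of 0 was given a limit of 3 counts. Ratios were computed for pairs with at least 20 UMIs. On simulated data the ratio intervals held the true value for 95.9% of 10288 genes in alveolar macrophage-like cells and for 97.2% of 3540 in neutrophil-like cells. Those counts were drawn from the Poisson model that the intervals assume, without variation between cells or mice. The simulation therefore checks the calculation only, not how well the intervals suit real cells. Named genes are the 10 members in every class with enough UMIs, plus pathway genes at least 2-fold different with intervals that leave out 0, of which the examples given were chosen after their values were seen. The members and lists were chosen with earlier results of these data known. The gene most like each member was sought over profiles of named classes per library as log2(CPM + 1). Leaving out S100-rich cells or single clusters was an alternative chosen after seeing the data. Scaling alternatives included edgeR's TMM factor (edgeR 4.0.16), used for scaling only.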

Additional observations from a re-analysis of the deposited data

Results flagged for a closer look

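Il1b differed in opposite directions between classes under the same contrast, and the difference between classes was not tested. Its log2 ratio (fibrosis over control) was 1.66 in alveolar macrophage-like cells and 2.97 in NK cell-like cells. It was -1.75 in neutrophil-like, -1.22 in classical monocyte-like, -2.19 in endothelial cell-like and -1.74 in ciliated cell-like cells. Without cells rich in S100a8 and S100a9 the ratio was 0.58 in NK cell-like, -0.55 in endothelial cell-like and -0.40 in ciliated cell-like cells, and the intervals of the paired levels overlapped in each. Leaving such cells out also removed Il1b UMIs, and the cause was not tested. A signal outside the compared classes was Il1r2 in the unnamed cluster led by Ikzf2, Cxcr6 and Icos, with 2 UMIs in 99 control cells and 37 UMIs in 247 fibrosis cells.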

How the results depend on the processing

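Over 1077 alternative values, 999 stayed within the counting interval of the reported value (for counts, within 1.5 times), 72 moved beyond it and 6 changed sign where the reported interval left out 0. Of the 72, 15 were log2 ratios that took the other sign where the reported interval included 0. The 6 log2 ratios were Casp1 in alveolar macrophage-like cells with the median ratio of the other classes subtracted (0.051), Pycard in endothelial cell-like cells without the Vwf-led cluster (0.19), Il1b in NK cell-like cells without doublet removal (-0.13), and Il18 in neutrophil-like cells with cells named one by one (-0.43), at the scrublet threshold (-1.24) and at a mitochondrial maximum of 5% (-1.24).

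With the other classes' median subtracted, Casp1 in classical monocyte-like cells was -0.20, Il1rn in alveolar macrophage-like cells 0.46, Il18 there -0.41, Il1b there 2.17, and Il1b in neutrophil-like cells -1.43 and in nonclassical monocyte-like cells -0.41. With cells named one by one, Pycard in classical monocyte-like cells was 0.043, and Il1b was -0.69 in them and -1.39 in neutrophil-like cells, where edgeR's TMM factor gave -2.24. Without doublet removal Il1b was 1.11 in alveolar macrophage-like and -1.10 in nonclassical monocyte-like cells. A mitochondrial maximum of 5% gave 0.31 for Pycard in classical and -1.02 for Il1b in nonclassical monocyte-like cells. At Leiden resolution 2, Il1b in nonclassical monocyte-like cells was -1.02 and Il18 in alveolar macrophage-like cells -0.32. Without the Mmp12-led cluster, Il1b in alveolar macrophage-like cells was 1.08 and Il18 -0.12. Il1b in nonclassical monocyte-like cells was -0.17 without cells rich in S100a8 and S100a9 and -0.14 without the cluster with Csf3r and Cxcr2.

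The 8 pairs at least 2-fold higher became 4 without doublet removal, 5 without S100-rich cells, 2 at a minimum of 50 UMIs and 26 at a minimum of 1 UMI. The 7 lower pairs became 4 with cells named one by one, 11 at a mitochondrial maximum of 5% and 12 at a minimum of 1 UMI. The neutrophil-like share of control Il1b UMIs, 58.0%, was 64.2% with cells named one by one, 50.5% without doublet removal, 39.4% at a common minimum of 1915 UMIs per cell, 59.8% at a mitochondrial maximum of 5% and 73.6% without S100-rich cells in other classes. Beyond what the alternatives' construction shows, the cause was not tested. Classes left with under 50 cells, or with 0 UMIs in a library, gave no value. No paired analysis was possible because each group has 1 sample. Depth limits the neutrophil-like values most, with 50 fibrosis cells.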

Other observations

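The unnamed cluster led by Ikzf2, Cxcr6 and Icos, genes of activated lymphocytes, held 20.7% of all fibrosis Il1r2 UMIs, at 47.0 CPM (33.1 to 64.8) against 6.01 (0.727 to 21.7) in the control library. In the fibrosis library 19 of its 247 cells (7.69%, 4.69 to 11.8) had an Il1r2 UMI, with up to 10 in 1 cell, against 2 of 99 (2.02%, 0.246 to 7.11). Of those 19 cells, 12 (63.2%) also had a UMI of Il1rl1, the IL-33 receptor gene, against 61 of the other 228 (26.8%), and 5 (26.3%) had Foxp3, the gene of the regulatory T cell factor, against 43 (18.9%); these genes were chosen after the cluster was seen and depth per cell was not matched. The same cluster held less Pycard in the fibrosis library, 257 CPM against 631 (log2 ratio -1.30, -1.58 to -1.01), and less Gsdmd, 16.5 against 45.0 (-1.45, -2.64 to -0.28).

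Among classes with too few cells to compare, Il1r1 was highest in fibroblast-like cells, at 120 CPM in 45 control and 103 CPM in 52 fibrosis cells (23 and 29 UMIs). Mesothelial cell-like cells, the lining of the pleura, held 208 CPM of Il18 in 33 control and 198 in 31 fibrosis cells, and 84.0 and 59.4 CPM of Gsdmd. Migratory dendritic cell-like cells, 79 of them in the fibrosis library, held 73.1 CPM of Gsdmd (31 UMIs). Control cells of a mixed cluster led by Acta2 and Tagln, genes of smooth muscle, held 9 of the 66 control Il1a UMIs and its fibrosis cells 0. A mixed cluster led by Csf3r held Il1b at 1465 CPM in 43 control and 804 CPM in 43 fibrosis cells (log2 ratio -0.87, -1.25 to -0.49).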
